A study of Mus musculus with 6 samples.

Results

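The dual-specificity MAP kinase phosphatases described here are 8 genes, chosen by name from the 55291 gene symbols in the deposited tables. They are Dusp1, Dusp10 and Dusp16, grouped as phosphatases of the stress kinases, Dusp4, Dusp5, Dusp6 and Dusp7, grouped as ERK phosphatases, and Dusp2, which stands in neither subset. Libraries were made from RAW264.7, a macrophage line of mouse ascites whose cells turn into osteoclasts under RANKL, the cytokine that drives osteoclast formation. The shUSP8 group (n = 3) carried a short hairpin against Usp8, a deubiquitinating enzyme of endosomes, and has the genotype label of a knock down, while the shCtrl group (n = 3) carried a control hairpin and has the genotype label WT. Every culture of both groups had been given RANKL at 50 ng/mL for 4 days, and no group without RANKL was analysed. Neither the number of hairpins, nor their delivery, nor separate cultures behind the 3 libraries of a group are given in the labels. The p-values therefore reflect library-to-library spread, which could be technical in origin.

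MAP kinases are switched on by phosphorylation of a threonine and a tyrosine in their activation loop, and dual-specificity phosphatases switch them off by removing both phosphates. The family members differ in place and in target. Dusp1, Dusp2, Dusp4 and Dusp5 encode nuclear enzymes, Dusp6 and Dusp7 encode cytoplasmic enzymes that prefer ERK, and Dusp10 and Dusp16 encode enzymes that act on JNK and p38. Many of these genes are themselves induced by MAP kinase activity, and in osteoclast precursors RANK, the receptor for RANKL, signals through ERK, JNK and p38. Transcript levels do not measure enzyme or kinase activity.

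Total expected counts lay between 19973522 and 20213939 per library, about the same in both groups. Usp8, the targeted gene, had 656, 720 and 718 expected counts in the shUSP8 libraries, against 2785, 2561 and 2645 in the shCtrl libraries (log2 fold change -2.00, SE 0.06, edgeR adjusted p = 1.47e-10), as its labels say. The library shUSP8_2 stood apart in its mean fragment length, 368.2 nt, while the other 5 libraries lay between 291.8 and 309.2 nt. All 10 osteoclast markers were detected, and their summed level was 11207.5 to 11561.6 CPM (counts scaled to the normalised library size) in shUSP8 and 13487.0 to 13911.7 CPM in shCtrl, with 5 of the 10 called lower and 0 higher. The 8 macrophage markers summed to 5764.9 to 6335.4 CPM in shUSP8 and 4262.7 to 4445.0 CPM in shCtrl, with 5 of the 8 called higher and 2 lower. The higher sum rests on Lyz2, at 2699.0 CPM on average in shUSP8 and 852.5 CPM in shCtrl. The 2 lower markers were abundant: Cd68, at 1434.7 CPM in shUSP8 and 1840.5 CPM in shCtrl, and Csf1r, at 1213.4 and 1382.1 CPM. The part of these marker differences in the phosphatase results was not tested. The 6 neutrophil markers summed to 2.73 to 3.19 CPM in shUSP8 and 0.808 to 1.16 CPM in shCtrl, with Ly6g and Elane at 0 in every library. Most of this sum was Csf3r, at 2.19 CPM in shUSP8 and 0.646 CPM in shCtrl. Of the list 2 were tested, and both were called higher. The 7 lymphocyte markers summed to 2.65 to 2.69 CPM in shUSP8 and 1.31 to 1.60 CPM in shCtrl, with Cd3e, Cd3g, Ms4a1 and Nkg7 at 0. Nearly all of this sum was Lck, at 2.64 CPM in shUSP8 and 1.44 CPM in shCtrl, the 1 marker tested, called higher. The 8 stromal and osteoblast markers summed to 8.11 to 8.45 CPM in shUSP8 and 6.53 to 14.6 CPM in shCtrl, with Alpl and Bglap at 0. These sums overlapped between groups, but single markers at low levels did not. Col1a1 averaged 0.454 CPM in shUSP8 and 2.79 CPM in shCtrl, where shCtrl_3 had 5.99 CPM. Dcn went the other way, at 0.86 CPM in shUSP8 and 0.136 CPM in shCtrl, and was not tested. Of the list 4 were tested, with Col1a1 among them, and none was called.

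Of the 8 phosphatase transcripts, 4 were higher in shUSP8 and none was lower (edgeR quasi-likelihood test, adjusted p under 0.05). None was lower at an unadjusted p under 0.05 either, nor by DESeq2 or limma. Across all 12440 genes tested, 32.8% were called, 17.8% higher and 14.9% lower. By CPM, 5 members had groups without overlap, beside 47.7% of all genes tested, and 3 members were called and at least 1.5-fold higher, beside 7.3% of all genes. Dusp1 rose 2.89-fold, Dusp5 1.79-fold, Dusp2 1.66-fold and Dusp6 1.43-fold. Dusp4, Dusp7, Dusp10 and Dusp16 did not pass the test. All 8 members passed the filter on low counts, and their median log2 fold change was 0.40, beside 0.00 for all genes tested. In these bulk libraries, a change in the number of cells that express a gene and a change in its RNA per cell cannot be told apart.

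**Figure D1:**
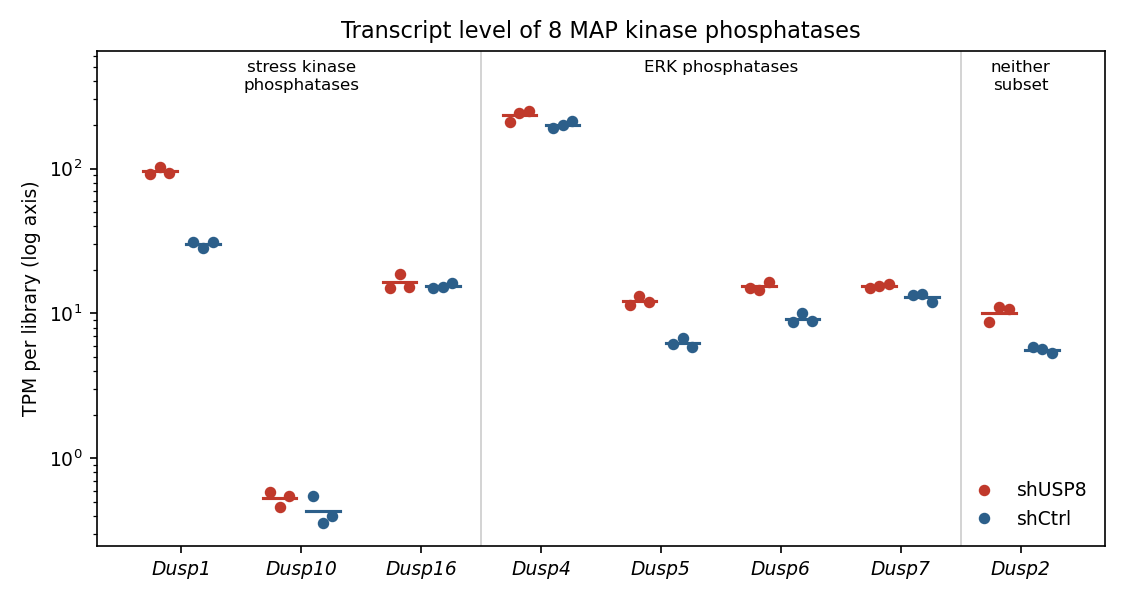
Level of each phosphatase in TPM (a level per transcript length, scaled to a fixed sum) in every library, on a log axis. Points are libraries and bars are group means, n = 3 per group. Dusp1, Dusp5, Dusp6, Dusp7 and Dusp2 have no overlap between groups, and the groups of Dusp10, Dusp16 and Dusp4 overlap.

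Dusp1 encodes the inducible nuclear phosphatase that restrains p38 and JNK in activated macrophages. It lies on chromosome 17 at 26505590 to 26562128, minus strand (GRCm38). Its expected counts were 2604, 2897 and 2463 in the shUSP8 libraries, against 874, 831 and 926 in the shCtrl libraries. Every shUSP8 library lay far above every shCtrl library. The level was 129.1 ± 9.93 CPM in shUSP8 and 44.7 ± 2.95 CPM in shCtrl (SD, n = 3 per group). The log2 fold change was 1.53 (SE 0.07, 95% interval 1.38 to 1.68, edgeR adjusted p = 6.92e-09). By log2 fold change Dusp1 held rank 322 of the 12440 genes tested, and it was the member with the highest value. The row sums 6 annotated transcripts, of which a long one reaches 26562128 and so runs into the first part of Ergic1 on the opposite strand, which starts at 26561489. Ergic1 had 4531, 4579 and 4712 expected counts in shUSP8 and 2812, 2824 and 2741 in shCtrl, and the labels do not say whether counting used the strand. Its effective length, the length open to fragments averaged over the transcripts as RSEM weighted them, was 1661, 1587 and 1639 nt in shUSP8, against 1633, 1651 and 1665 nt in shCtrl, and the groups overlapped.

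Dusp1 is known as a gene that responds to cyclic AMP and stress signals through sites just before its start. The RefSeq promoter window of Dusp1 (GRCm38.p6, chr17:26508423-26508722, minus strand) is printed because this gene changed most. It runs from 250 bases before the start to 50 bases after it, and capitals mark matches of TGACG and TGACGTCA, the core and the full form of the cyclic AMP response element.
Dusp1: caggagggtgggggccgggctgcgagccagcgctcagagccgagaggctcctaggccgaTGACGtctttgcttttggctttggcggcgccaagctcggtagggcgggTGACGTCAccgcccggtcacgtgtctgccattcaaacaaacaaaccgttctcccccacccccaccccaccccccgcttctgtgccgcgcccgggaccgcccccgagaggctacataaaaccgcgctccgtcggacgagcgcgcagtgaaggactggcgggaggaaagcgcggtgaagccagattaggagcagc
The full element TGACGTCA begins at position -143, counted from 0 at the start. Of all 32851 promoter windows of 300 bases in the RefSeq table, 1.79% hold TGACGTCA and 20.8% hold TGACG on either strand. The Dusp1 window has 3 matches of TGACG, of which 2 are the arms of the full element. It held no match of TGANTCA, the AP-1 element (7.81% of all windows), or of TATAAA (13.6%). These matches are letters in a window and do not show that a factor binds there.

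Dusp16 and Dusp10, the other stress kinase phosphatases, did not follow Dusp1. Dusp16 encodes a phosphatase that shuttles between nucleus and cytoplasm and prefers JNK (chromosome 6, 134715468 to 134792625, minus strand). It had 1004, 1203 and 1040 expected counts in shUSP8, against 1073, 1061 and 1172 in shCtrl. The groups overlapped. The level was 52.6 ± 4.80 CPM in shUSP8 and 56.2 ± 3.82 CPM in shCtrl, and the log2 fold change was -0.09 (SE 0.07, 95% interval -0.25 to 0.07, edgeR adjusted p = 0.362). Its sign turned on the TPM scales, where the log2 fold change was 0.06 with log2(TPM + 1) and 0.07 with log2(TPM + 0.1).

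Dusp10 encodes a phosphatase of JNK and p38 and was barely expressed (chromosome 1, 184013302 to 184075636, plus strand). Its expected counts were 25, 18 and 22 in shUSP8, against 17, 16 and 18 in shCtrl. The groups touched at 18. The log2 fold change was 0.28 (SE 0.26), and its 95% interval, from -0.29 to 0.85, spans no change and a rise as large as that of Dusp5 (edgeR adjusted p = 0.443).

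Among the ERK phosphatases, Dusp5 and Dusp6 rose. Dusp5 encodes a nuclear phosphatase specific to ERK (chromosome 19, 53529109 to 53542431, plus strand). Its expected counts were 427.69, 493.31 and 422.24 in shUSP8, against 228.0, 260.08 and 229.63 in shCtrl, with a wide gap between the groups. The counts are not whole, so some of its reads were shared with other sequence, and an antisense gene, AC137853.2, overlaps its start. The level was 21.8 ± 1.77 CPM in shUSP8 and 12.2 ± 0.839 CPM in shCtrl, and its log2 fold change was 0.84 (SE 0.09, edgeR adjusted p = 1.54e-05).

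The RefSeq promoter window of Dusp5 (GRCm38.p6, chr19:53528895-53529194, plus strand) is printed because it alone among the members' windows holds the CArG box, the core of the serum response element, through which growth signals act on early genes. Capitals mark the CArG boxes and a match of TGACG on the other strand.
Dusp5: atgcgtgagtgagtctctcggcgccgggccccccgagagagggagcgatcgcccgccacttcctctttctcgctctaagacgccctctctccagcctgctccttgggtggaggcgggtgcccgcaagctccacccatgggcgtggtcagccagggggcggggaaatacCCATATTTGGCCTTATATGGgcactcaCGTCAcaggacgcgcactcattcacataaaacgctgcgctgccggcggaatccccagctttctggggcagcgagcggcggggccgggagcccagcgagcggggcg
The 2 CArG boxes stand side by side, at positions -82 and -72, and 1.63% of all 32851 windows hold at least 1. The table matched 7 of the 8 members, all but Dusp4. Beside Dusp1 and Dusp5, the windows of Dusp2 and Dusp16 held 1 TGACG each, while those of Dusp6, Dusp7 and Dusp10 held none of the 5 motifs searched. A match was thus present in Dusp1, Dusp2 and Dusp5, which rose, and in Dusp16, which did not pass the test. Dusp6, which rose, had none, and neither had Dusp7 and Dusp10, which did not pass. The match of Dusp2 lay after the start, at position 5. A link between matches and calls was not tested.

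Dusp6 encodes a cytoplasmic phosphatase selective for ERK, which ERK signalling itself induces as a feedback (chromosome 10, 99263231 to 99267489, plus strand). Its expected counts were 528, 544 and 554 in shUSP8, against 338, 398 and 351 in shCtrl, with no overlap. The level was 26.4 ± 0.649 CPM in shUSP8 and 18.5 ± 1.52 CPM in shCtrl, and its log2 fold change was 0.51 (SE 0.07, edgeR adjusted p = 2.08e-04). The effective length of Dusp6 was 2082, 2088 and 2062 nt in the shUSP8 libraries, against 2231, 2256 and 2207 nt in the shCtrl libraries. Dusp6 was the member whose groups did not overlap on this measure, and its shUSP8 values were the lower ones. The row joins a coding transcript of 2796 nt, a coding transcript of 2359 nt that lies in the same span, and processed transcripts of 758 and 876 nt. With effective lengths as offsets in the edgeR fit, the log2 fold change of Dusp6 was 0.61.

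Dusp4 and Dusp7 did not pass the test. Dusp4 encodes a nuclear phosphatase of ERK that can also act on JNK, and it was the most abundant member (chromosome 8, 34807297 to 34819894, plus strand). It had 8749, 10242 and 9872 expected counts in shUSP8, against 7976, 8570 and 9288 in shCtrl, and the groups overlapped. The level was 467.8 ± 35.9 CPM in shUSP8 and 438.9 ± 38.4 CPM in shCtrl (log2 fold change 0.09, SE 0.07, 95% interval -0.07 to 0.25, edgeR adjusted p = 0.373). Dusp7, a close relative of Dusp6 (chromosome 9, 106368632 to 106375724, plus strand), had 736, 770 and 718 expected counts in shUSP8, against 670, 639 and 627 in shCtrl. Its groups did not overlap, which was so for 24.6% of all genes tested in the same direction. The log2 fold change was 0.13 (SE 0.06, 95% interval 0.00 to 0.26), with an edgeR p of 0.047 before and 0.112 after adjustment. With library totals in place of TMM factors, which correct for library composition, Dusp7 was called (0.21, edgeR adjusted p = 0.0233), on a scale that moved the median of all genes to 0.07.

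Dusp2 encodes a nuclear phosphatase found mainly in activated blood cells (chromosome 2, 127336159 to 127338376, plus strand). Its expected counts were 179, 213 and 218 in shUSP8, against 116, 122 and 113 in shCtrl, and the shUSP8 values were all above those of shCtrl. The level was 9.89 ± 1.01 CPM in shUSP8 and 5.96 ± 0.179 CPM in shCtrl, and its log2 fold change was 0.73 (SE 0.11, edgeR adjusted p = 2.73e-04).

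**Figure D2:**
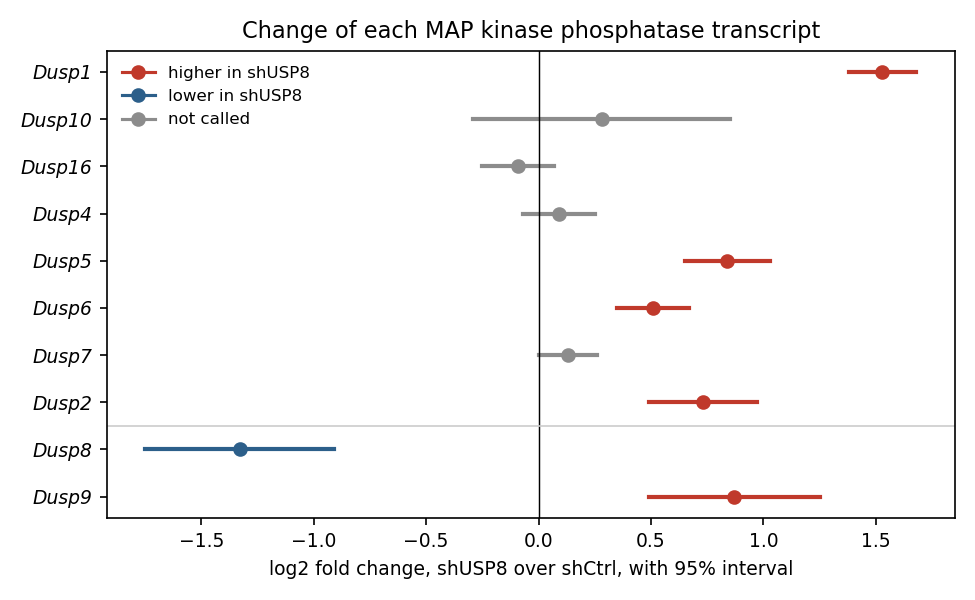
Log2 fold change of each phosphatase, shUSP8 over shCtrl (n = 3 per group), with its 95% interval from the edgeR fit. Dusp8 and Dusp9, under the line, are family members outside the 8; Dusp1 stands highest at 1.53 and Dusp8 lowest at -1.33.

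The remaining MAP kinase phosphatases moved in opposite directions at low levels. Dusp8, a phosphatase of JNK and p38, fell to 1.46 ± 0.0744 CPM in shUSP8, against 3.67 ± 0.637 CPM in shCtrl (log2 fold change -1.33, SE 0.19, edgeR adjusted p = 2.4e-04). Its expected counts were 29, 32 and 29 in shUSP8 and 75, 59 and 82 in shCtrl. With effective lengths as offsets its log2 fold change was -2.02, and on log2(TPM + 1) it was -0.86. Dusp9, the third cytoplasmic ERK phosphatase beside Dusp6 and Dusp7, rose to 3.63 ± 0.321 CPM in shUSP8, against 1.99 ± 0.234 CPM in shCtrl (log2 fold change 0.87, SE 0.17, edgeR adjusted p = 0.00227). Styxl1, a family member that lacks phosphatase activity, had at most 5 expected counts in a library and was not tested.

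Setting the subsets side by side, 1 of 3 stress kinase phosphatases and 2 of 4 ERK phosphatases rose. Across all genes tested 17.8% were called higher, and subsets of 3 and 4 genes are too small to set against that share. The median log2 fold changes of the stress kinase and ERK phosphatases were 0.28 and 0.32. The first median is the value of Dusp10, which has few counts, and it was 0.16 without shUSP8_1, 0.40 without shUSP8_2, 0.18 with effective-length offsets and 0.10 on log2(TPM + 1). The median of the ERK phosphatases was 0.46 on log2(TPM + 1) and 0.49 on log2(TPM + 0.1). That of the stress kinase phosphatases was 0.25 on log2(TPM + 0.1), so the gap between the subsets was wider on the TPM scales. On these scales the median of all genes tested was itself 0.11 and 0.13. Dusp10 averaged 0.533 TPM in shUSP8 and 0.437 TPM in shCtrl, less than the 1 that log2(TPM + 1) adds. The spread within each subset, -0.09 to 1.53 for the stress kinase phosphatases and 0.09 to 0.84 for the ERK phosphatases, was wider than the gap between the medians of the edgeR fit. By gene, the ratio of CPM between each stress kinase phosphatase and each ERK phosphatase was taken within each library, 12 ratios in all. The ratio of Dusp1 to Dusp4 was 0.298, 0.283 and 0.249 in shUSP8, against 0.110, 0.0970 and 0.0997 in shCtrl. The ratio of Dusp1 to Dusp5 was 6.08, 5.88 and 5.84 in shUSP8, against 3.83, 3.20 and 4.03 in shCtrl. All 4 ratios with Dusp1 on top were higher in shUSP8 with no overlap of the groups. The ratio of Dusp16 to Dusp5 was 2.35, 2.44 and 2.46 in shUSP8, against 4.71, 4.08 and 5.10 in shCtrl. All 4 ratios with Dusp16 on top were lower in shUSP8 with no overlap. Dusp16 itself was not called (log2 fold change -0.09), and its own groups overlapped. The share of ratios without overlap was not taken over other gene pairs. By CPM, 47.7% of all genes tested had groups without overlap. The ratios of Dusp10 overlapped between groups, except that to Dusp5. Each of the 9 ratios without overlap had a two-sided exact permutation p of 0.1, the smallest that 3 against 3 libraries can give, and 0.13 after Benjamini-Hochberg adjustment over the 12 ratios. No ratio could pass the test in this design, so these p-values decide nothing about the ratios. The 12 ratios share their genes and are not separate results. Within the stress kinase phosphatases, the ratios of Dusp1 and of Dusp16 to the ERK phosphatases differed in direction.

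Levels between genes are compared here in TPM. Dusp4 was the most abundant member in every library, at 209.8, 242.6 and 249.9 TPM in shUSP8 and 190.5, 199.3 and 211.6 TPM in shCtrl. Dusp1 followed, at 92.1, 102.6 and 92.8 TPM in shUSP8 and 31.1, 28.5 and 30.9 TPM in shCtrl. These levels make Dusp4 and Dusp1 together most of the transcript pool in both groups. In shUSP8 the order went on with Dusp16 (16.3 ± 2.09 TPM), Dusp7 (15.5 ± 0.562 TPM) and Dusp6 (15.4 ± 1.06 TPM), 3 neighbours whose ranges overlapped, then Dusp5 (12.2 ± 0.847 TPM), Dusp2 (10.1 ± 1.26 TPM) and Dusp10 (0.533 TPM on average). In shCtrl the same order held, with Dusp16 at 15.5 ± 0.666 TPM, Dusp7 at 13.0 ± 0.898 TPM, Dusp6 at 9.21 ± 0.682 TPM, Dusp5 at 6.26 ± 0.476 TPM, Dusp2 at 5.62 ± 0.254 TPM and Dusp10 at 0.437 TPM on average, and no neighbours overlapped.

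The pool of the 8 transcripts was 367.5, 418.7 and 413.6 TPM in shUSP8, against 271.3, 279.6 and 291.2 TPM in shCtrl. In shUSP8 the median of all genes tested lay 0.11 higher on log2(TPM + 1), and sums of TPM are to be read relative to that shift. Dusp1 made up 24.0% ± 1.38 of the pool in shUSP8 and 10.8% ± 0.637 in shCtrl. Dusp4 made up 58.5% ± 1.73 in shUSP8 and 71.4% ± 1.22 in shCtrl. Shares add to a fixed sum, so the lower share of Dusp4 does not show a fall in its transcript. The summed TPM of the stress kinase phosphatases was 2.44-fold that of shCtrl in shUSP8, and without Dusp1 it was 1.06-fold. For the ERK phosphatases these values were 1.21-fold, and 1.51-fold without Dusp4.

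**Figure D3:**
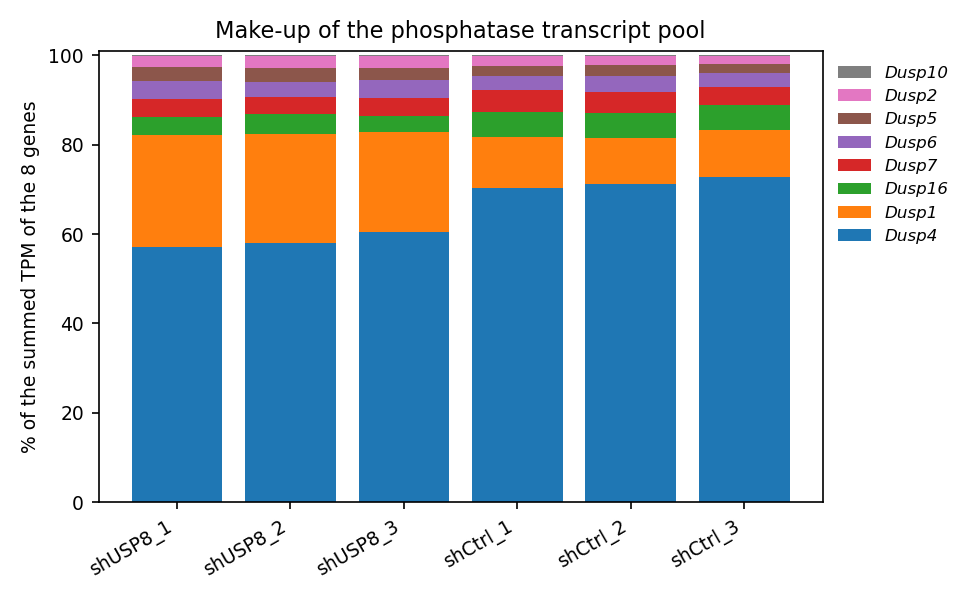
Share of each phosphatase in the summed TPM of the 8 genes, as a percentage, with a stacked bar for each library. The Dusp1 share is 22.4% to 25.0% in the shUSP8 libraries and 10.2% to 11.5% in the shCtrl libraries.

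The calls of Dusp1, Dusp2, Dusp5 and Dusp6 held under all 16 alternatives, including each library left out. Without shUSP8_2, the library with longer fragments, their log2 fold changes were 1.47, 0.70, 0.77 and 0.52. The highest adjusted p over the alternatives was 6.69e-06 for Dusp1, 0.00388 for Dusp2, 5.59e-04 for Dusp5 and 0.0028 for Dusp6, each from edgeR or limma.

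**Figure D4:**
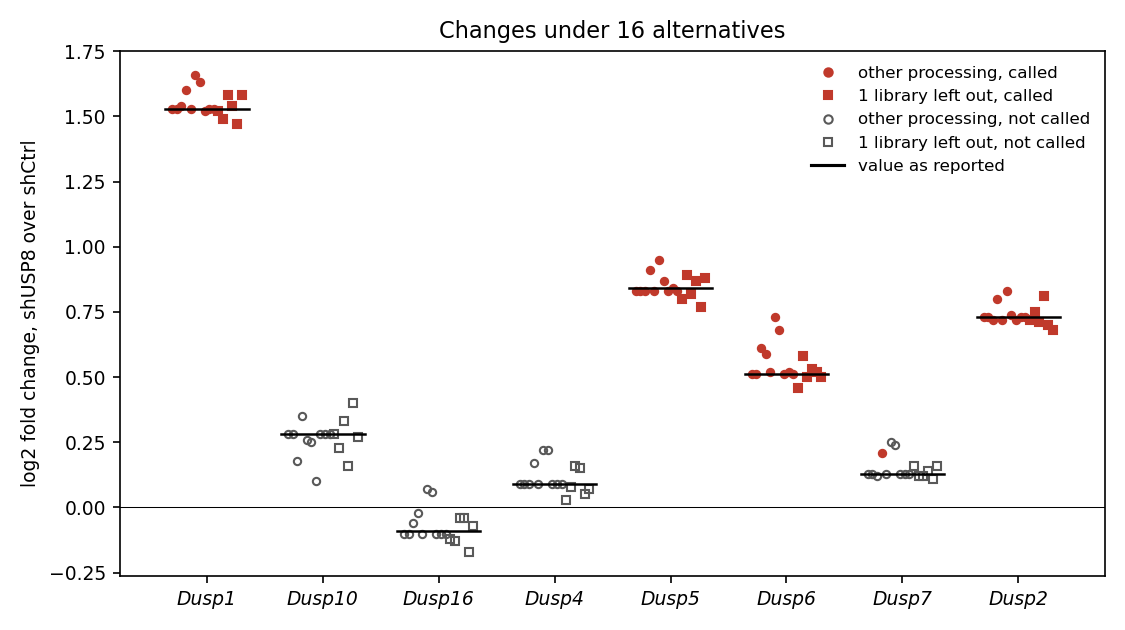
Log2 fold change of each phosphatase (shUSP8 over shCtrl) under 16 alternatives, with the reported value as a line. Circles are other processing choices, squares leave out 1 library, and filled red symbols are calls. Dusp1 stays between 1.47 and 1.66, and Dusp7 is called in 1 alternative.

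Lists of cascade kinases and targets were described in the same fit. Their counts are to be read beside the shares over all 12440 genes tested, 17.8% called higher and 14.9% lower. No list was tested against those shares. Of the 7 ERK cascade kinases, 4 fell, with a median log2 fold change of -0.17. Mapk3, which encodes ERK1, fell to 177.8 ± 9.10 CPM in shUSP8, against 221.4 ± 6.91 CPM in shCtrl (log2 fold change -0.32, edgeR adjusted p = 7.08e-04). Braf, a kinase at the top of the cascade, was lower (-0.25), and lost its call without shCtrl_2 (edgeR adjusted p = 0.0645). Map2k1, which encodes the ERK activator MEK1, was lower as well (-0.20). Its call was lost without shCtrl_1 (0.0519), shCtrl_2 (0.0522) or shUSP8_3 (0.0803), as edgeR adjusted p. Only 1 of these 7 kinases was called lower with library totals, on the TPM scales or without shCtrl_2, and 2 without shUSP8_3.

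Of 20 JNK and p38 cascade kinases, 18 were tested, 5 rose and 3 fell, with a median log2 fold change of 0.07. Map3k20, a kinase that senses ribosome stress, fell to 62.8 ± 3.45 CPM in shUSP8, against 88.8 ± 3.64 CPM in shCtrl (log2 fold change -0.50, edgeR adjusted p = 3.48e-05). Map2k7, an activator of JNK (-0.35), and Mapk8, which encodes JNK1 (-0.30), also fell, while Map3k5, a kinase that senses oxidative stress, rose (0.46). Mapk8 lost its call with effective-length offsets (-0.17, edgeR adjusted p = 0.403) and on log2(TPM + 1) (-0.04), and Map2k7 on log2(TPM + 1) (-0.15). The number that rose was 3 with DESeq2, with effective-length offsets or without shCtrl_1, shUSP8_2 or shUSP8_3. The number that fell was 5 without shUSP8_2 and 1 on the TPM scales.

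Of 10 kinases downstream of MAP kinases, 9 were tested, 3 rose and 4 fell, with a median of -0.01. Rps6ka1, which encodes a ribosomal S6 kinase activated by ERK, rose (0.39, edgeR adjusted p = 1.63e-04). Rps6ka5, a nuclear kinase activated by ERK and p38, fell (-0.53), and so did Mknk2, which acts on a translation factor (-0.22), while its relative Mknk1 rose (0.26). Mknk1 lost its call without shCtrl_1 (edgeR adjusted p = 0.0562), shCtrl_2 (0.0567) or shUSP8_3 (0.0543). When any library other than shUSP8_2 was left out, 2 of these kinases were called lower, and 1 was called higher without shCtrl_1, shCtrl_2 or shUSP8_3. On the TPM scales none was called lower.

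Of 14 genes known as targets or feedback regulators of ERK signalling, 4 rose and 1 fell, with a median of 0.09. Ier3, an early response gene, rose to 30.4 ± 2.47 CPM in shUSP8, against 15.1 ± 0.555 CPM in shCtrl (log2 fold change 1.01, edgeR adjusted p = 8.84e-07). Egr1, an early response transcription factor, rose to 54.5 ± 1.88 CPM in shUSP8, against 37.6 ± 1.62 CPM in shCtrl. Myc, a transcription factor of growth, was higher by 0.18 but lost its call without shCtrl_1 (edgeR adjusted p = 0.12), shCtrl_2 (0.0663) or shUSP8_2 (0.0562). Spred1, an inhibitor of ERK activation, fell to 557.1 ± 30.9 CPM in shUSP8, against 733.5 ± 23.3 CPM in shCtrl (-0.40). The number that rose was 2 without shCtrl_2 or with effective-length offsets.

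Of 14 atypical dual-specificity phosphatases, which lack the kinase-binding domain of the family, 9 were tested, 1 rose and 2 fell. Dusp13 was at 0.77, with its call lost in DESeq2 (adjusted p = 0.0627) and with effective-length offsets (0.57, edgeR adjusted p = 0.084). Dusp11, a phosphatase that acts on RNA, fell by 0.33 on the log2 scale, and lost its call on log2(TPM + 1) (-0.11) and with effective-length offsets (-0.25, edgeR adjusted p = 0.111). With those offsets 0 of the list were called in either direction, and on the TPM scales 0 were called lower. Dusp19 was at -0.29, and its call was lost when any library other than shUSP8_1 was left out (edgeR adjusted p = 0.0513 to 0.111), which left 1 of the list called lower. Of 8 other phosphatases of MAP kinases, 7 were tested and 1 rose: Ptpn7, a tyrosine phosphatase of blood cells that binds MAP kinases, at 84.0 ± 2.93 CPM in shUSP8 and 66.1 ± 1.73 CPM in shCtrl (log2 fold change 0.35, edgeR adjusted p = 2.8e-04). Without shUSP8_3, 2 of this list were called higher.

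**Figure D5:**
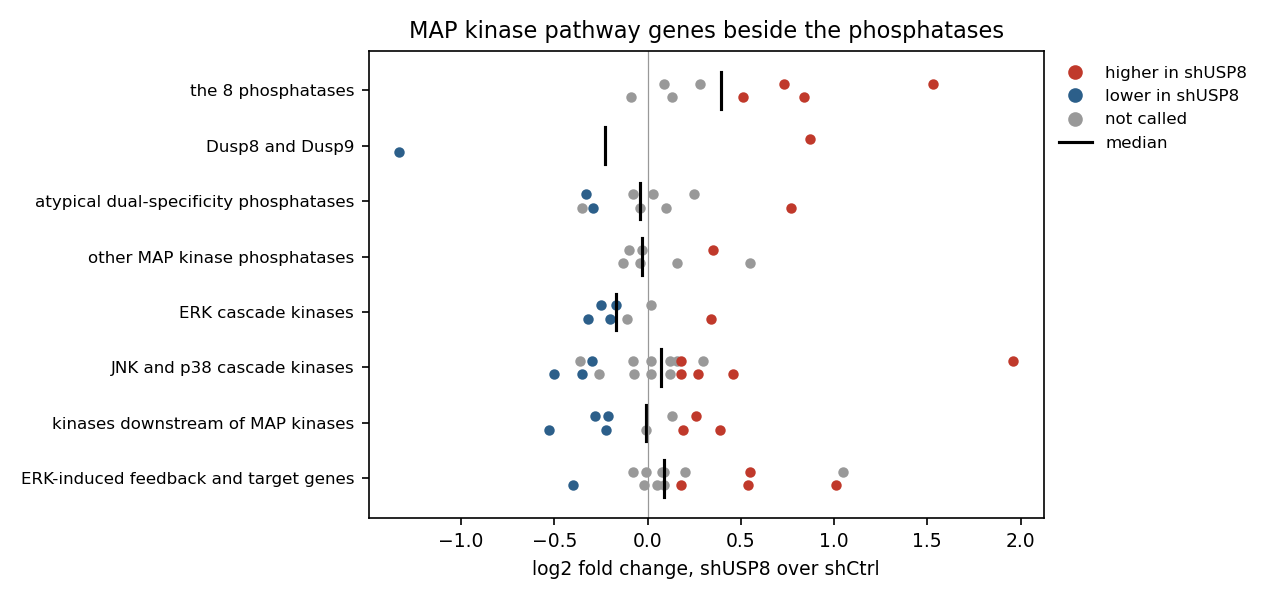
Log2 fold change (shUSP8 over shCtrl) of every tested gene in each list, coloured by call, with the list's median as a black line. The median of the 8 phosphatases is 0.40, and the medians of the kinase and target lists lie between -0.17 and 0.09.

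Genes whose level varied most like each member within groups were sought over the 6 libraries, after the group means were taken out. The search held 8635 genes whose log2 CPM averaged 3 or more, without predicted genes, clone names or genes of the mitochondrial genome. Pearson's r was highest with Zdhhc13 for Dusp1 (0.999), Slc38a2 for Dusp4 (0.998), Dapk3 for Dusp5 (0.992), Dcaf15 for Dusp6 (0.996), Csrnp1 for Dusp7 (0.994) and Tcp1 for Dusp16 (0.999). The next were E4f1, Fam135a, Depdc5, Ppp1r10, Fbxo21 and Fbh1, in the same order of members, with r of at least 0.989. The points share their libraries, and taking out the group means leaves fewer free values than the 6 libraries. Such values of r are the best of many, so they are given as a description. Slc38a2 was lower in shUSP8 (log2 fold change -0.60), as were Dcaf15 (-0.56) and Csrnp1 (-0.37). Of the 12 genes, Ppp1r10 was called higher (0.25), as was Dusp6, and the other 8 were not called, among them Tcp1 (-0.06) and Fbh1 (-0.01).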

How the data were processed

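RNA of 6 libraries of RAW264.7 cells was sequenced in pairs on the DNBSEQ platform, per the labels' protocols. The authors deposited expected counts, which are RSEM's estimates of fragments per gene (7.16% are not whole), and TPM values, in which each count is divided by the effective length and scaled to a fixed sum. RSEM, mm10 and DESeq2 1.28.1 are named, without roles, per the submitters' processing notes; aligner and annotation are not given in the sources used here. Columns headed WT and KO were taken as shCtrl and shUSP8 by genotype label and title number; KO was read as the knock down, the other genotype in the labels.

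After rounding, the expected counts went through edgeR 4.0.16 (under R 4.3.3; TMM, filterByExpr with minimum count 10 and minimum total 15, robust quasi-likelihood F test), with Benjamini-Hochberg adjustment over all genes tested and calls under 0.05. SE is the absolute log2 fold change over the square root of F. CPM uses TMM factors, and log2 CPM has a prior count of 2. Coordinates are from GENCODE M21 (98.7% of transcripts matched) and promoters from RefSeq. DESeq2 1.42.0 and limma 3.58.1 served as alternatives, limma on log2(TPM + 1) and log2(TPM + 0.1). Simulated counts were put through the main edgeR fit, DESeq2 and limma-voom, and the other steps were not tested in this way. Members, lists and the rule for names were chosen with earlier results of these data known. The rule names the members, Usp8, up to 4 called genes of each list by smallest p, tested family members outside the 8, and the 2 genes most alike in pattern to each member whose log2 CPM averages 3 or more. Some genes that the rule or the marker lists hold are not reported here.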

Additional observations from a re-analysis of the deposited data

How the results depend on the processing

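The number of members called higher was 4 under 15 of the 16 alternatives and 5 with library totals, where Dusp7 was called (0.21), and none was called lower under any. Over all genes, 1859 were called lower and 2218 higher. The count of lower genes was 1226 with effective-length offsets, 1172 with library totals, 500 on log2(TPM + 1), 492 on log2(TPM + 0.1) and 1239 to 2077 with a library left out, where shCtrl_2 gave the lowest. The share of calls that were higher was 54.4%, against 72.6% with library totals and 82.6% on log2(TPM + 1). The median log2 fold change of the stress kinase phosphatases was 0.18 with effective-length offsets, 0.35 with library totals, 0.10 on log2(TPM + 1) and 0.16 to 0.40 with a library left out. That of the ERK phosphatases was 0.40 with library totals, 0.46 on log2(TPM + 1) and 0.49 on log2(TPM + 0.1). The cause of these shifts was not tested. Libraries that share a replicate number were not treated as paired: deviations of same-numbered libraries correlated at -0.01, 0.08 and -0.05, and not every library correlated best with its own number. With the replicate block, 4 members were called higher, 2021 of all genes were higher and 1690 lower, and no member's call changed. Depth limits Dusp10, Dusp8 and Dusp9, with under 100 expected counts per library.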
